A study of Mus musculus with 18 samples.

Results

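The genes described here are the chemokines and chemokine receptors, taken as the rows of the count table whose symbol begins with Ccl, Cxcl, Cx3cl, Xcl, Ccr, Cxcr, Cx3cr, Xcr or Ackr followed by a digit. They number 43 of 21011 genes, of which 24 encode ligands and 19 encode receptors. RNA was sequenced from 18 mice, 1 library per mouse, from telogen dorsal skin after overnight trypsin, in which the epidermis was scraped off and passed through a mesh. The series concerns sebaceous gland stem cells and the loss of Notch signalling in the epidermis. Per the labels, which give 1 treatment for all samples, tamoxifen was given at 8 weeks of age and skin was sampled 10 weeks later.

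In KR mice (n = 4, numbers 1, 3, 4 and 5), the K14-CreERT driver, active in basal keratinocytes, deleted Rbpj, which encodes the transcription factor that all Notch receptors use. In LR mice (n = 3, numbers 1 to 3), Lrig1-CreERT2, expressed from a stem cell gene of the upper hair follicle, deleted Rbpj. In KN1 mice (n = 4, numbers 1 to 4), a driver written K14-CreERT1 in the labels deleted the receptor gene Notch1. Each mutant had its own controls, of the same batch or litter and with the same cage label: numbers 4 and 6 for KR (Batch2), 2, 3 and 5 for LR (Batch1) and 1 and 7 for KN1 (Batch3). The labels do not state the genotype of the controls. KR control 4 and KN1 control 1 each combine reads of 1 mouse from 2 sequencing occasions, and LR control 5, KR control 6 and KN1 control 7 carry a second name in the labels. KR and LR share the deleted gene but differ in driver and cage label, and KN1 differs from both in deleted gene and cage label, so what sets a difference between mutants cannot be told apart.

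Chemokines are small secreted or membrane-bound proteins that guide leukocytes along gradients through G protein-coupled receptors. Keratinocytes are a main source of them in skin: they make some constitutively, such as Cxcl14 and Ccl27, and others when NF-kB or interferon signalling is on. Atypical receptors, named Ackr, bind chemokines without coupling to G proteins and remove or hold them.

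Promoters of the called genes Ccl1, Cxcl1 and Ackr3 are shown first, because chemokine genes are textbook NF-kB targets and RBPJ is the factor deleted in KR and LR. RefSeq promoters on GRCm38.p6, 250 bases before to 50 after a start, were found for 34 of the 43 genes, and for 4 of the 7 genes called in any comparison. Of these 4, Ccl27a is not shown. Capitals in a sequence mark only the motif named with it. The sequences below are the 250 bases upstream of the start, written 5′ to 3′ on the strand of the gene. In Ccl1 (chr11:82179813-82180062, minus strand) the capitals mark matches to the RBPJ motif TGGGAA on either strand, and the first of the 2 matches overlaps a run that also matches the NF-kB motif, GGG, any 5 bases and CC.
Ccl1: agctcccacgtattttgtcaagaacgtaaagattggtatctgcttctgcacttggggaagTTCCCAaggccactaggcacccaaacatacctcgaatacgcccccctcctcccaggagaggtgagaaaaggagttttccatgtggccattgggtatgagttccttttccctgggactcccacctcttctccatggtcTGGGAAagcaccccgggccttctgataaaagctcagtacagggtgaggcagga
In Cxcl1 (chr5:90890995-90891244, plus strand) the capitals mark 2 runs that hold 4 overlapping matches to the NF-kB motif over both strands.
Cxcl1: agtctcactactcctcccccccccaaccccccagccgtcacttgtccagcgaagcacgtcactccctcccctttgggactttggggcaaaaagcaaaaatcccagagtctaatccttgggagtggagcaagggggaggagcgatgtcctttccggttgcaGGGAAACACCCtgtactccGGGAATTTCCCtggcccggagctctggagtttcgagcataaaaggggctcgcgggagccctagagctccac
In Ackr3 (chr1:90203730-90203979, plus strand), the called gene of the KR mice with the smallest adjusted p, none of the 4 motifs searched had a match.
Ackr3: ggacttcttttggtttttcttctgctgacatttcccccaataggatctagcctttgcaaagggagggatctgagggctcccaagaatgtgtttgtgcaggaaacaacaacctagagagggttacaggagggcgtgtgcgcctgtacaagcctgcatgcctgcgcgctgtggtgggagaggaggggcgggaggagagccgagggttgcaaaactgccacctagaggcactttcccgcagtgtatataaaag
The other motifs searched were TGANTCA, that of AP-1, and an interferon-response motif, GAAA, any 2 bases and GAAA. Of all 32851 RefSeq promoters, 50.8% held the NF-kB motif, 25.6% the RBPJ motif, 7.81% the AP-1 motif and 3.44% the interferon motif. Of the 38 promoters of the chemokine and receptor genes, the shares were 55.3%, 28.9%, 13.2% and 7.89%. A match is a run of letters and not a bound site.

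The tissue label was checked against marker genes. The summed level of 6 keratinocyte genes was 35572 to 64609 CPM (counts scaled to library size with TMM normalization). That of 6 fibroblast genes was 14.6 to 59.1 CPM and that of 6 endothelial genes 2.18 to 13.4 CPM. Cd207, the defining gene of Langerhans cells, was at 10 to 37.2 CPM, so immune cells of the epidermis are in the samples. Total counts were 8076316 to 21216169 per library. The deleted Notch1 fell in KN1 mice by 0.91 ± 0.19 on the log2 scale (adjusted p = 0.0251), from 212 to 112 CPM. Rbpj, counted over the whole gene, was lower by point estimate in KR (log2 fold change -0.47, adjusted p = 0.135) and LR (-0.66, adjusted p = 0.0659), without passing the threshold. In KN1, where Notch1 was the deleted gene, Rbpj was also lower by point estimate (-0.34, adjusted p = 0.31). A sum of 8 hair matrix and shaft genes exceeded 100 CPM in 6 mice, although all skin is labelled telogen: KR control 6, KR 4, KR 5, LR 2, LR control 2 and KN1 2. The sum of 8 mitochondrial genes was 14387 and 26026 CPM in the KR controls, above the 7454 to 12662 CPM of the KR mice, and in the KN1 controls it was 8749 and 10212 CPM, above the 4653 to 7529 CPM of the KN1 mice. All 8 genes had a negative log2 fold change in each comparison, with 5 called lower in KR, 2 in KN1 and 0 in LR. In LR the sums overlapped, and LR control 5 was at 17360 CPM. The part of this sum in the results was not tested.

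Per length of exon, the constitutive keratinocyte chemokines led. Over the 7 controls, Cxcl14 stood at 308 CPM per kb on average, with mice from 191 to 655, and Ccl27a at 88.8 CPM per kb, with mice from 72.1 to 115. The lowest Cxcl14 mouse was thus above the highest Ccl27a mouse. The next were Ackr4, a scavenger of Ccl19, Ccl21 and Ccl25 (26.6 CPM per kb), the membrane-bound Cxcl16 (26.5), Ackr3 (14.1), the membrane-bound Cx3cl1 (12.9) and Cxcl12 (8.31). Ranges of neighbours in this order overlapped from Ackr4 to Cxcl16 and from Ackr3 to Cxcl12. The most abundant conventional receptor was Ccr4, of skin-homing T cells, at 7.51 CPM per kb. The other 35 genes lay below it, down to Cxcl2 at 0.0153 CPM per kb.

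**Figure D1:**
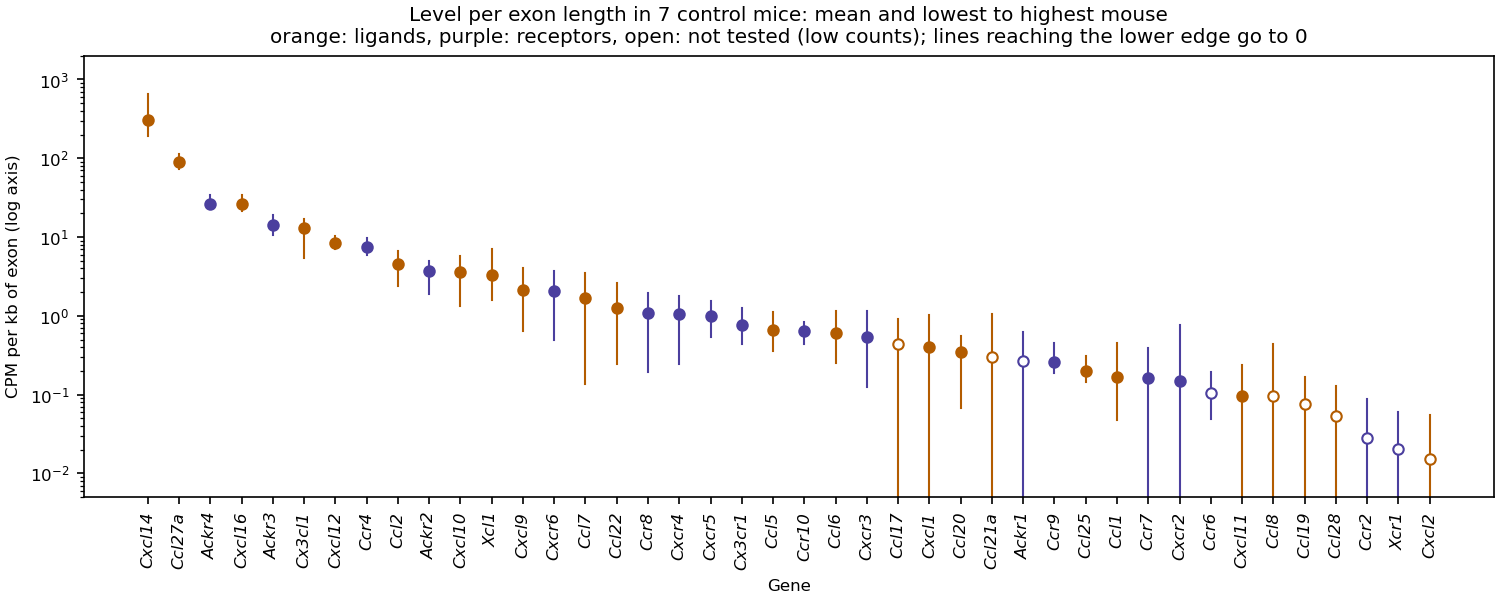
Level of 42 of the genes in the 7 control mice, as CPM per kb of exon on a log axis, with points for means and lines from the lowest to the highest mouse. Cxcl14 and Ccl27a stand highest, at 308 and 88.8, and the 10 open points are genes with too few counts to be tested.

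The filter on low counts kept 32 of the 43 genes, 18 ligands and 14 receptors. Those with too few counts included the ligands Ccl8 (23 counts over all mice), Ccl17 (60), Ccl19 (25), Ccl21a (91), Ccl28 (43) and Cxcl2 (22) and the receptors Ackr1 (98), Ccr2 (69), Ccr6 (78) and Xcr1 (19). The highest value of these in any mouse was 1.94 CPM, of Ccl17 in LR 3. Genes high in 1 group pass this filter more easily than genes low in all, so counts over the 32 describe only those genes. All p-values below come from edgeR's quasi-likelihood test, adjusted by Benjamini-Hochberg over 16517 genes, and called means an adjusted p under 0.05. Standard errors follow log2 fold changes after ±.

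The calls fell on different genes in each mutant. KR mice had 3 called genes of 32 (9.38%), all higher, where 1.6% of all genes tested were called. LR mice also had 3, all higher, where 1.12% of all genes were called. KN1 mice had 1 (3.12%), which was lower, where 1.97% of all genes were called. Median log2 fold changes of the 18 ligands were 0.61 in KR, 0.96 in LR and 0.31 in KN1, and those of the 14 receptors were -0.17, -0.23 and -0.44. The medians of all genes tested were 0.04, -0.00 and 0.02. Ligands with a positive log2 fold change numbered 14, 17 and 12 of 18, and receptors 4, 4 and 3 of 14.

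**Figure D2:**
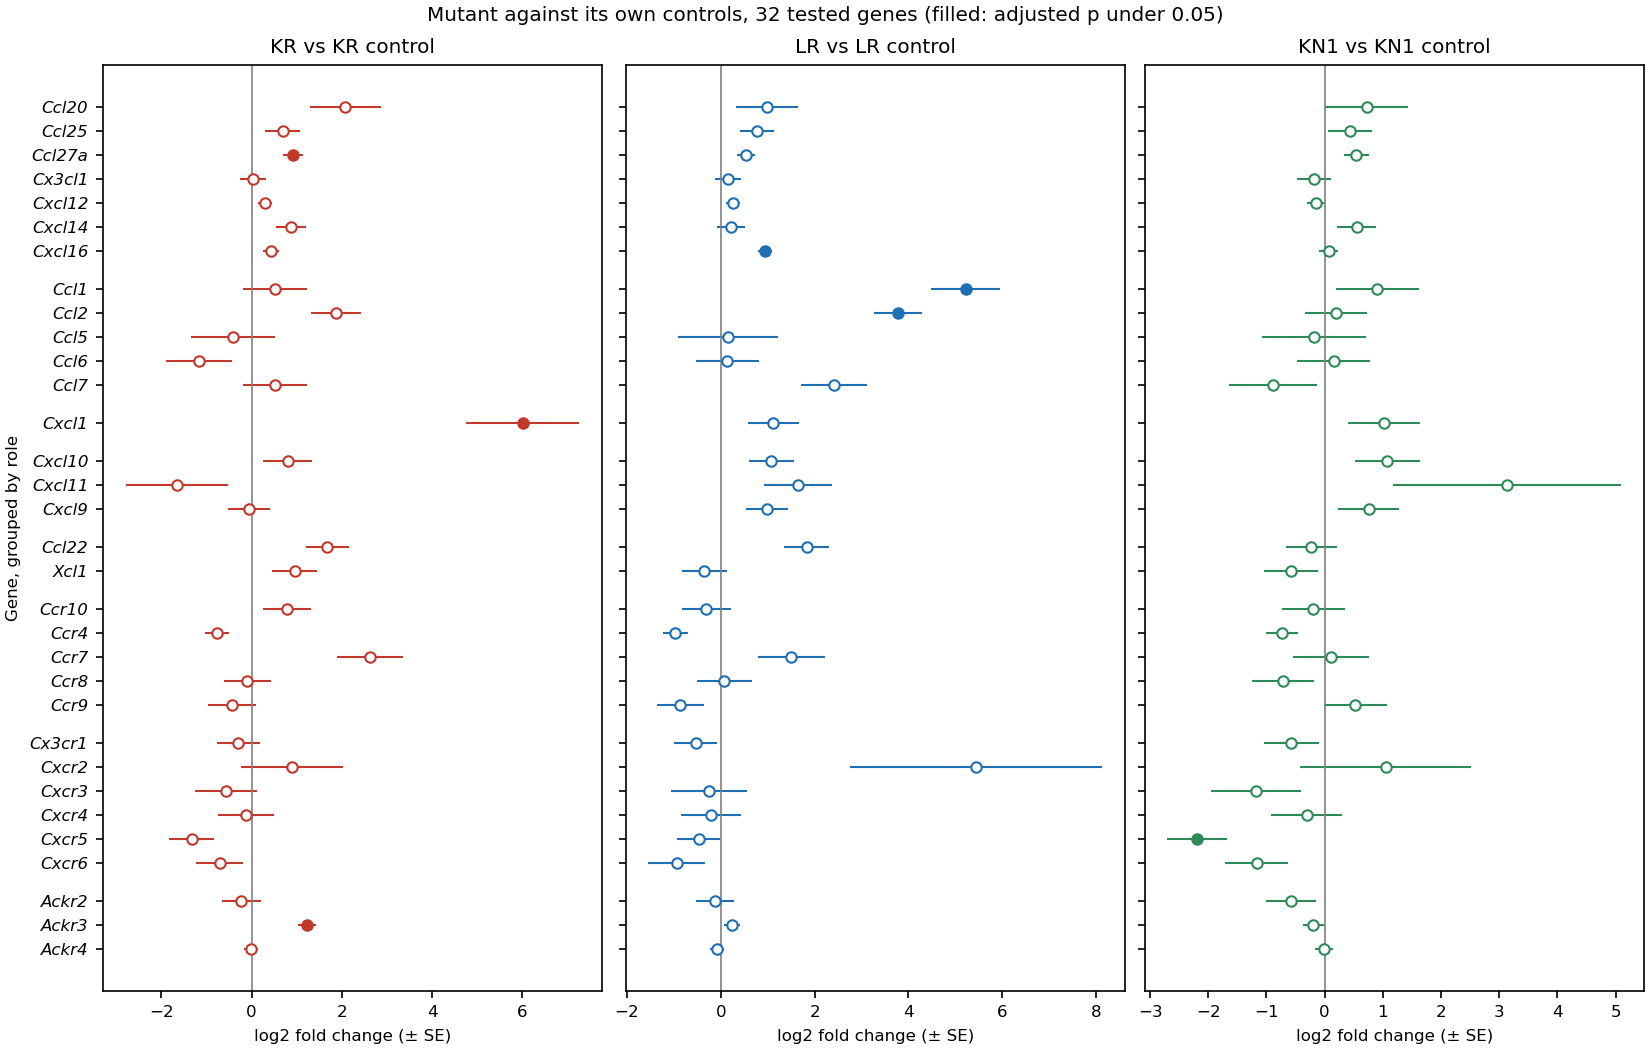
Log2 fold change of each mutant against its own controls for the 32 tested genes, grouped by role with ligands above receptors, with lines for ± 1 SE; filled points passed an adjusted p of 0.05. The filled points are Ccl27a, Cxcl1 and Ackr3 in KR, Cxcl16, Ccl1 and Ccl2 in LR and Cxcr5 in KN1.

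Counted by mouse, 10 of 32 genes (31.2%) in KR had every mutant above every control, where 19% of all genes did, and 2 (6.25%) had every mutant below, where 19.5% did. In LR the counts were 10 above (31.2%), where 10.3% of all genes did so, and 1 below (3.12%), where 9.29% did so. In KN1 they were 2 above (6.25%), against 13.8% of all genes, and 5 below (15.6%), against 14.3%. Ccl2, Ccl22, Ccl27a, Ccr7 and Cxcl16 were above in both KR and LR. Ccr4 had every mutant below every control in all 3 comparisons. For these joint patterns the share of all genes was not computed.

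Among the inflammatory CC ligands, Ccl2 and Ccl1 rose in LR, and Ccl7 was not called. Ccl2, which attracts monocytes through Ccr2, was at 114, 52.9 and 82.2 CPM in LR 1, 2 and 3 and at 7.57, 6.67 and 4.11 CPM in LR controls 2, 3 and 5. The lowest LR mouse was well above the highest control. The mean rose from 6.12 ± 1.79 (SD, n = 3) to 83.0 ± 30.4 CPM (SD, n = 3). The fitted log2 fold change was 3.77 ± 0.51 (adjusted p = 0.00149). In KR mice Ccl2 was at 7.95, 17.2, 11.8 and 21.6 CPM against 5.12 and 2.70 CPM in KR controls 4 and 6. These groups did not overlap, and the log2 fold change of 1.87 ± 0.55 did not pass (adjusted p = 0.0822), although it did in DESeq2 (adjusted p = 0.0066). KN1 mice, at 7.18, 10.8, 4.43 and 2.64 CPM, overlapped their controls at 7.64 and 2.93 CPM. Ccl2 lies on GRCm38 at chr11:82035571-82037453.

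Ccl1, a ligand of Ccr8 on skin T cells, was nearly absent from LR controls, with 0.236, 0.113 and 0.179 CPM in controls 2, 3 and 5. LR 1, 2 and 3 had 10.3, 6.81 and 3.77 CPM. In reads, this is 221 counts in 3 LR mice against 5 in 3 controls, a log2 fold change of 5.22 ± 0.74 (adjusted p = 0.0012). The other 4 controls had 0.193 to 1.08 CPM, so the LR controls were at the low end of all 7, and each LR mouse was above every other mouse, of which KR 5 was the highest at 1.58 CPM. With all 7 controls pooled the log2 fold change was 4.07. Its gene model in GENCODE M21 spans chr11:82176657-82305690 on the minus strand, much longer than the RefSeq gene whose start is used above.

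Ccl7, the neighbour of Ccl2 on chromosome 11 and also a ligand of Ccr2, was at 8.82, 4.66 and 3.88 CPM in LR 1 to 3 against 0.828, 1.13 and 1.25 CPM in the controls. The groups did not overlap, but the log2 fold change of 2.41 ± 0.70 missed the threshold (adjusted p = 0.106). It passed in DESeq2 (adjusted p = 0.0211) and in edgeR without KN1 control 1 or 7 (adjusted p = 0.04 or 0.0384), mice outside this comparison. Ccl5 and Ccl6, which attract T cells and myeloid cells, overlapped between mutants and controls in all 3 comparisons. Of the 5 tested ligands of this group, 2 were called in LR and 0 in KR and KN1. At an unadjusted p under 0.05 there were 3 in LR, 1 in KR (Ccl2) and 0 in KN1, where the shares of all genes were 15.5%, 22.9% and 18.5%.

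The same genes were compared between mutants as differences of their log2 fold changes. Ccl2 in LR exceeded KN1 by 3.58 ± 0.71 (adjusted p = 0.122) and KR by 1.90 ± 0.71 (adjusted p = 0.98). Ccl1 in LR exceeded KN1 by 4.31 ± 1.06 (adjusted p = 0.234) and KR by 4.69 ± 1.06 (adjusted p = 0.755). None passed in edgeR, where 0 of the 32 genes were called in each of the 3 differences, with 6 (18.8%) at an unadjusted p under 0.05 in each. The shares of all genes at that p were 4.15% for LR minus KR, 7.04% for LR minus KN1 and 7.57% for KR minus KN1. Of all genes, 0.00605% were called for LR minus KR, 0.00605% for LR minus KN1 and 0% for KR minus KN1. DESeq2 called Ccl1 and Ccl2 for LR minus KN1, Ackr3 for KR minus KN1 and 0 of these genes for LR minus KR.

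Among epithelial and stromal ligands, Cxcl16 was called in LR and Ccl27a in KR. Cxcl16, a membrane-bound ligand of Cxcr6 that also acts as a scavenger receptor, was at 181, 142 and 153 CPM in LR 1 to 3 against 90.0, 91.5 and 65.8 CPM in LR controls 2, 3 and 5. Every LR mouse was above every one of the 7 controls, the highest of which was KN1 control 7 at 103 CPM. The log2 fold change was 0.95 ± 0.16 (adjusted p = 0.00418). In KR it was at 80.6 to 96.4 CPM against 64.0 and 68.8 CPM, without overlap and without passing (0.43 ± 0.17, adjusted p = 0.147). In KN1 the groups overlapped at 82.4 to 108 against 77.4 and 103 CPM. The LR effect minus the KN1 effect was 0.88 ± 0.22 (adjusted p = 0.257).

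Ccl27a, made by keratinocytes and bound by Ccr10 on skin-homing T cells, was at 416, 302, 299 and 311 CPM in KR 1, 3, 4 and 5. KR controls 4 and 6 had 179 and 171 CPM, so no mouse overlapped. The log2 fold change was 0.92 ± 0.22 (adjusted p = 0.042), and the KR controls were the lowest of all 7, the others lying at 181 to 273 CPM. Without KR 1, 3 or 5 the adjusted p was 0.0798, 0.101 or 0.0955, and without KR control 4 or 6 it was 0.139 or 0.391. Leaving out 5 mice of other groups one at a time (LR control 3, LR 1, LR 2, KN1 3 or KN1 4) moved it to 0.0505 to 0.0548. LR mice, at 309, 272 and 324 CPM, were above their controls at 227, 218 and 181 CPM without passing (0.53 ± 0.20, adjusted p = 0.192). KN1 mice, at 464, 251, 439 and 307 CPM, overlapped controls at 273 and 228 CPM (0.54 ± 0.21, adjusted p = 0.185).

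Cxcl14, an abundant constitutive chemokine of epithelia, was called in no comparison. KR mice were at 703 to 952 CPM against 526 and 367 CPM in their controls (0.88 ± 0.33, adjusted p = 0.142), without overlap. LR mice were at 409 to 561 against 349 to 486 CPM, with overlap. KN1 mice reached 1983 CPM in KN1 3, and their controls were at 627 and 1196 CPM (0.55 ± 0.33, adjusted p = 0.386). Cxcl12, the ligand of Cxcr4 and Ackr3, was at 46.9 to 111 CPM in all 18 mice, with log2 fold changes of 0.29, 0.26 and -0.15. Cx3cl1, the membrane-bound ligand of Cx3cr1, had log2 fold changes of 0.03, 0.15 and -0.18. Ccl20, which draws Ccr6-bearing cells, and Ccl25, the ligand of Ccr9, had positive log2 fold changes in each mutant, and neither was called. For Ccl20 they were 2.08 ± 0.79 in KR (adjusted p = 0.139), 0.98 ± 0.67 in LR and 0.72 ± 0.71 in KN1.

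Cxcl1, the neutrophil attractant bound by Cxcr2, was listed at 0 in both KR controls and at 0.237, 0.792, 0.819 and 1.08 CPM in KR 1, 3, 4 and 5. With 29 counts against 0 it was at least 8.00-fold higher in KR, taking 3 counts over the 2 controls as the limit (adjusted p = 0.0329). The other 5 controls had 0.612 to 1.92 CPM. KR 3, 4 and 5 thus lay within the range of the controls of other cohorts, and KR 1 lay below it. With all 7 controls pooled the log2 fold change was 0.05 (adjusted p = 0.978). Without KR 3 or 5 the adjusted p was 0.0876 or 0.0833, and without KR control 4 or 6 it was 0.141 or 0.293. LR mice were at 1.92, 2.84 and 2.91 CPM against 0.709, 1.92 and 0.894 CPM (1.12 ± 0.54, adjusted p = 0.338). KN1 mice were at 0.695 to 2.63 against 0.612 and 1.19 CPM (1.02 ± 0.61, adjusted p = 0.388).

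**Figure D3:**
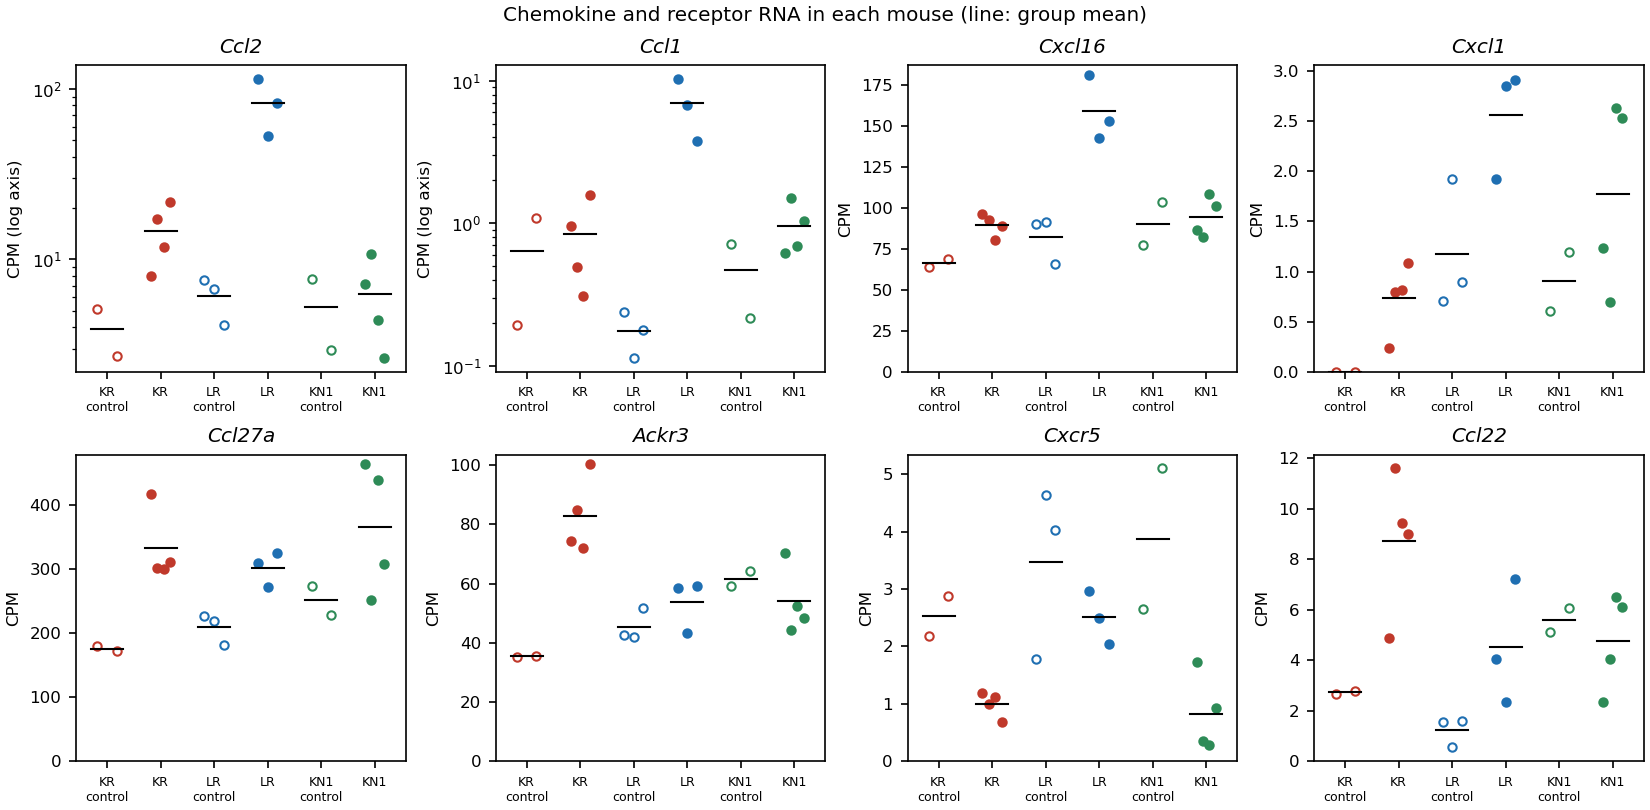
CPM of the 7 called genes and Ccl22 in each mouse, filled for mutants and open for controls, with lines for group means and log axes for Ccl2 and Ccl1. In LR the Ccl2, Ccl1 and Cxcl16 values lie above those of all other groups, and both KR controls are at 0 for Cxcl1.

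The interferon-induced ligands Cxcl9, Cxcl10 and Cxcl11, which attract Cxcr3-bearing T cells, each had a positive log2 fold change in LR. All 3 had an unadjusted p under 0.05, as did 15.5% of all genes tested. The log2 fold changes were 0.99 ± 0.44, 1.08 ± 0.49 and 1.65 ± 0.72, with adjusted p of 0.29, 0.299 and 0.284, so none was called. Cxcl10 was at 27.5, 15.4 and 26.3 CPM in LR 1 to 3 against 13.1, 11.3 and 8.41 CPM, without overlap. Cxcl9 at 15.6, 8.45 and 26.5 CPM overlapped its controls at 5.44, 7.68 and 12.2 CPM. Cxcl11 had 68 counts in LR, most of them in LR 1 at 4.51 CPM, and 3 in KN1 against 0 in its controls, for which no fold is given. It is annotated as a polymorphic pseudogene in GENCODE M21. The median over the 3 genes was 1.08 in LR, 1.07 in KN1 and -0.06 in KR. In KN1 all 3 were positive, with Cxcl10 at 1.07 ± 0.56 (adjusted p = 0.316), and Cxcl9 had every mutant above every control without passing (0.76 ± 0.53, adjusted p = 0.46).

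Among ligands of dendritic cells and lymphocytes, Ccl22, made by dendritic and Langerhans cells and bound by Ccr4, is described although the rule for named genes did not select it. It was at 4.87, 11.6, 9.41 and 8.98 CPM in KR against 2.66 and 2.79 CPM in KR controls. In LR it was at 4.03, 2.33 and 7.22 CPM against 1.54, 0.565 and 1.61 CPM. The LR controls were the lowest of all 7, the others lying at 2.66 to 6.08 CPM. Of the LR mice, only LR 3 was above every control of the 7. Neither pair of groups overlapped, and neither log2 fold change passed (1.68 ± 0.47, adjusted p = 0.0696 in KR, and 1.83 ± 0.48, adjusted p = 0.07 in LR). DESeq2 called both (adjusted p = 0.0119 and 0.0101), as did edgeR without LR control 5 or LR 3 for KR (adjusted p = 0.0408 or 0.0482) and without LR 2 for LR (adjusted p = 0.0307). With all 7 controls pooled, edgeR called Ccl22 in KR (adjusted p = 0.042) and not in LR. KN1 mice at 2.35 to 6.51 CPM overlapped controls at 5.10 and 6.08 CPM. Ccl17, the other ligand of Ccr4, was too low to be tested in every group.

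The summed level of 8 Langerhans cell genes was also higher in KR, without overlap, and overlapped in LR. It was 1631 to 1880 CPM in KR against 769 and 1256 CPM, and 1003 to 1595 CPM in LR against 685 to 1028 CPM. In KN1 it was 1183 to 1463 CPM, below its controls at 1643 and 2260 CPM. Cd74, H2-Ab1, Epcam and H2-Eb1 weigh most in these sums, with means of 415, 360, 256 and 235 CPM over all mice. The mean of Cd207 was 23.7 CPM. All 8 genes had a positive log2 fold change in KR and LR and 2 of 8 in KN1, with 1 called, Mfge8 in KR (1.14, adjusted p = 0.048). Their part in the Ccl22 values was not tested. In bulk samples, more or fewer cells of a type and more or less RNA per cell cannot be told apart. Ccr7, the receptor with which dendritic cells leave for lymph nodes, was at 0.789 to 1.78 CPM in KR against 0.242 and 0.0901 CPM (log2 fold change 2.62 ± 0.73, adjusted p = 0.0682, and 0.0375 without LR control 5). Xcl1, a lymphocyte product that acts on Xcr1 of dendritic cells, was at 1.68 to 2.37 CPM in KR against 0.821 and 1.26 CPM (0.96 ± 0.50, adjusted p = 0.261).

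Of the atypical receptors, Ackr3 rose in KR and had no call in the other mutants. It binds Cxcl12 and Cxcl11 and clears them. KR 1, 3, 4 and 5 were at 74.4, 85.0, 72.2 and 100 CPM, and KR controls 4 and 6 at 35.4 and 35.5 CPM. Each KR mouse was above each of the 7 controls and each other mutant. The KR controls were the lowest of all 7, the others lying at 41.9 to 64.1 CPM. The log2 fold change was 1.23 ± 0.19 (adjusted p = 0.0104), and it was 1.22 without KR control 4 (adjusted p = 0.0662) and 1.21 without KR control 6 (adjusted p = 0.213). With all 7 controls pooled the log2 fold change in KR was 0.81 (adjusted p = 0.015). LR mice at 58.7, 43.2 and 59.4 CPM overlapped their controls at 42.7, 41.9 and 51.8 CPM (0.24 ± 0.18, adjusted p = 0.541). KN1 mice at 44.5 to 70.4 CPM overlapped controls at 59.3 and 64.1 CPM (-0.19 ± 0.18, adjusted p = 0.609). The KR effect exceeded the KN1 effect by 1.42 ± 0.26 (adjusted p = 0.168), and the LR effect was lower than the KR effect by point estimate (-0.99 ± 0.26, adjusted p = 0.98).

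Ackr4 was at 121 to 185 CPM in all 18 mice, the narrowest range, as a ratio, of the 7 genes that led the order per length. Its log2 fold changes were -0.01 ± 0.15 in KR, -0.08 ± 0.14 in LR and -0.02 ± 0.15 in KN1. Ackr2, which removes inflammatory CC chemokines, was at 3.05 to 15.7 CPM and overlapped in each comparison.

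Ccr4, the receptor of skin-homing T cells, was lower in every mutant mouse than in every control of its cohort. KR mice were at 21.8, 13.5, 22.0 and 11.1 CPM against 30.4 and 27.5 CPM. LR mice were at 12.4, 12.5 and 7.97 CPM against 18.6, 24.3 and 21.8 CPM. KN1 mice were at 16.7, 10.4, 12.2 and 8.73 CPM against 20.7 and 19.3 CPM. The log2 fold changes were -0.76 ± 0.27, -0.97 ± 0.27 and -0.74 ± 0.27, and none was called (adjusted p of 0.119, 0.0844 and 0.164). DESeq2 called it in LR (adjusted p = 0.0195). With all 7 controls pooled, edgeR called it lower in LR and KN1 (adjusted p = 0.0167 and 0.0174) and not in KR. The direction was the same in 3 cohorts with separate controls, and the share of all genes that did the same was not computed. In the single comparisons, 19.5% (KR), 9.29% (LR) and 14.3% (KN1) of all genes had every mutant below every control.

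Cxcr6 and Ccr8 are the receptors for Cxcl16 and Ccl1. Cxcr6, found on tissue-resident T cells, was at 3.84, 3.47, 1.94 and 0.919 CPM in KN1 against 7.09 and 4.23 CPM (-1.17 ± 0.54, adjusted p = 0.256). Its log2 fold change was -0.71 ± 0.53 in KR and -0.94 ± 0.60 in LR. Ccr8 in KN1 was at 0.804 to 1.25 CPM against 1.43 and 2.28 CPM (-0.71 ± 0.53, adjusted p = 0.497). Neither overlapped its controls in KN1, and both overlapped in KR and LR. In LR, where Ccl1 rose, Ccr8 had 22 counts against 20 in the controls (0.07 ± 0.59). Ccr10, the receptor for Ccl27a, was at 0.347 to 2.73 CPM in all mice and overlapped in each comparison.

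A list of 10 T cell genes was also lower in KN1. Its summed level was 101 to 127 CPM in KN1 against 212 and 229 CPM, with all 10 log2 fold changes negative and 3 called lower: Cd3g (-1.41), Cd3d (-1.29) and Trdc (-1.59). In LR it was 59.1 to 140 CPM against 139 to 183 CPM, with 9 of 10 negative and 0 called (5 at an unadjusted p under 0.05). In KR, where Ccr4 was also lower in each mouse, it was 156 to 271 CPM against 87.1 and 167 CPM. Of the 10 log2 fold changes in KR, 3 were positive and 0 were called, with a median of -0.12. Thy1, the most abundant gene of the list at 23.0 to 213 CPM over all mice, weighs most in these sums. The part of T cell number in the receptor values was not tested.

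**Figure D4:**
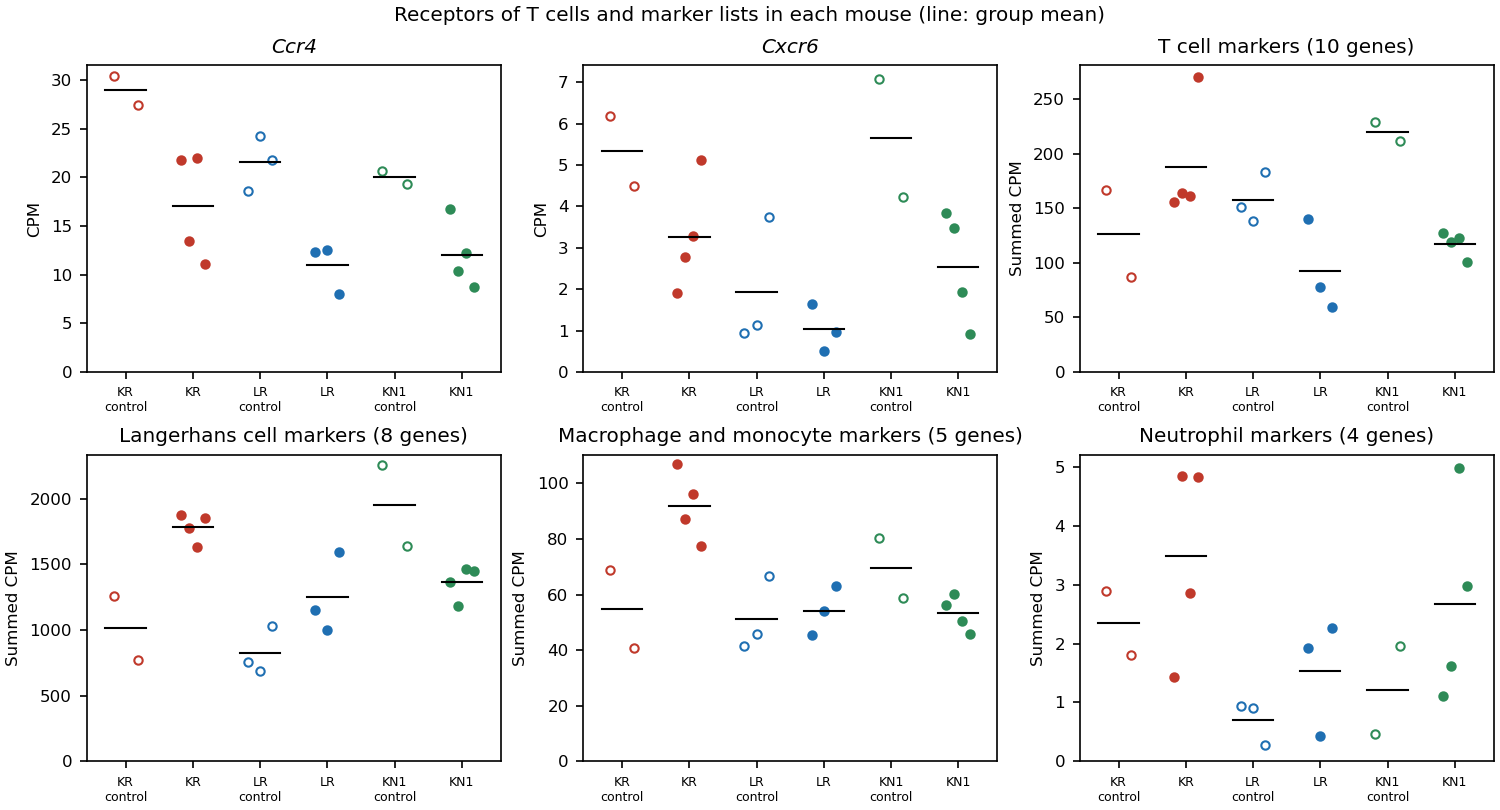
CPM of Ccr4 and Cxcr6 and summed CPM of 4 marker lists in each mouse, filled for mutants and open for controls, with lines for group means. Ccr4 is lower in every mutant than in its controls. The T cell sum is at 101 to 127 in KN1 against 212 and 229, at 59.1 to 140 in LR against 139 to 183, and at 156 to 271 in KR against 87.1 and 167.

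Cxcr5, the receptor for Cxcl13 on B cells and follicular helper T cells, was the gene called in KN1. It was at 1.73, 0.347, 0.277 and 0.919 CPM in KN1 1 to 4 against 2.65 and 5.10 CPM in KN1 controls 1 and 7. That is 27 counts in 4 mutants against 99 in 2 controls, and it fell by 2.19 ± 0.51 on the log2 scale (adjusted p = 0.0359). Without KN1 control 7 the log2 fold change was -1.68 (adjusted p = 0.333), and without KN1 2, 3 or 4 the adjusted p was 0.0901, 0.0691 or 0.0868. KR mice, at 0.691 to 1.19 CPM, were also below their controls at 2.17 and 2.88 CPM (-1.33 ± 0.50, adjusted p = 0.14). LR mice, at 2.05 to 2.97 CPM, overlapped controls at 1.77 to 4.63 CPM. Exons of Cxcr5 overlap those of Bcl9l on the opposite strand, and reads of both genes may be mixed, because the labels do not say whether strand was used in counting. The same holds for Ccl27a with Il11ra1, Cxcl16 with Zmynd15, Ackr4 with Acad11 and Cxcl10 with Art3. It also holds for Ccl25 with Elavl1, Ccr9 with Slc6a20a, Xcl1 with Gm20743, Cx3cr1 with Gm33858 and Cxcl11 with Gm2673. Exons of Ccr9 further overlap those of Gm17200 on the same strand. Ccl27a also belongs to a family of near-identical copies, between which reads may have been split.

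Ccr2 and Cxcr2, receptors for Ccl2 and Cxcl1, had few counts in LR. Ccr2, the monocyte receptor for Ccl2 and Ccl7, was not tested. It had 24 counts in LR and 6 in its controls, at 1.15, 0.69 and 0.431 CPM against 0.591, 0 and 0.0894 CPM, with overlap. In KR it had 20 counts against 3, at 0.475 to 0.594 CPM against 0.0966 and 0.0901 CPM, without overlap. In KN1 it had 8 counts against 8. Cxcr2, the neutrophil receptor for Cxcl1, had 15 counts in LR and 0 in its controls, at least 4.55-fold more (adjusted p = 0.354). LR 1, 2 and 3 had 3, 1 and 11 of these counts, and without LR 3 the limit was 1.7-fold. In KR Cxcr2 was at 0.475, 3.67, 1.64 and 3.75 CPM against 2.32 and 0.0901 CPM, with overlap. The neutrophil list had 4 genes in the table, S100a8, S100a9, Mpo and Cxcr2, and their sum was 0.268 to 4.98 CPM over all mice. Ly6g, Elane, Retnlg and Csf3r of that list were absent from the 21011 genes, so their levels are not known. Of 5 macrophage and monocyte genes in the table, Lyz2 was at 0.237 to 2.39 CPM and the sum in LR, at 45.5 to 63.2 CPM, overlapped that of its controls at 41.6 to 66.7 CPM. In KR that sum was 77.4 to 107 CPM against 40.8 and 68.9 CPM, with 4 of 4 tested genes positive and 0 called. Csf1r, at 28.7 to 88.7 CPM over all mice, weighs most in these sums. Whether they are separate from the Langerhans cell values was not tested.

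Cxcr3, the receptor for Cxcl9 to Cxcl11, Cxcr4, the receptor for Cxcl12, Cx3cr1, the receptor for Cx3cl1, and Ccr9 had no call. Of these, Ccr9 had every KN1 mouse above both controls (2.30 to 3.70 against 1.95 and 2.14 CPM), and the others overlapped in each comparison.

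The rest of the pathway was read from a list of 36 genes of chemokine receptor signalling, 35 of them tested. Only 1 was called in KR, the G protein subunit gene Gnai3, which fell by 0.62 on the log2 scale (adjusted p = 0.048). At an unadjusted p under 0.05 there were 15 (42.9%) in KR, where 22.9% of all genes tested were. In LR and KN1 0 were called, with 6 (17.1%) and 8 (22.9%) at an unadjusted p under 0.05, near the 15.5% and 18.5% of all genes tested. The list's median log2 fold changes were 0.22, -0.06 and -0.20. A list of 41 cytokine and NF-kB genes that act upstream of chemokine genes, 40 of them tested, had 5 calls in KR, 5 in LR and 1 in KN1, where 1.6%, 1.12% and 1.97% of all genes were called. Tslp, an epithelial cytokine that acts on dendritic and T cells, rose in KR (5.58), LR (2.58) and KN1 (2.19). The NF-kB subunit genes Nfkb2 and Relb rose in KR (1.01 and 0.88) and LR (0.80 and 0.84). In KR the kinase gene Ikbke also rose (1.08) and the receptor gene Il13ra1 fell by 0.72 on the log2 scale. In LR the inhibitor gene Nfkbie (1.35) and the receptor gene Il4ra (0.86) rose, and in KN1 only Tslp was called of this list. Naming the fifth gene in KR and LR was decided after the values were seen. That makes 4 higher and 1 lower in KR, 5 higher in LR and 1 higher in KN1, with median log2 fold changes of 0.38, 0.25 and 0.09.

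The KR and KN1 calls rest on 2 controls each, and leaving out 1 of them ended all 3 KR calls and, for KN1 control 7, the KN1 call. Such a fit takes the lone control to vary like the mice of the other groups. Without the 6 mice with the most hair matrix RNA, Ccl1 and Ccl2 were still called in LR, and Cxcl16 was not (1.09, adjusted p = 0.0549).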

How the data were processed

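Counts of reads per gene for 18 mice were used as deposited, as whole numbers without normalization. The authors used STAR, HTSeq and DESeq2 with build mm10, per the submitters' processing notes, which give no versions or roles. Strand use in counting is not stated there.

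All 16517 genes that edgeR's filterByExpr kept were fitted with 6 group means over 18 mice (edgeR 4.0.16, R 4.3.3, TMM, robust quasi-likelihood F test, two-sided, Benjamini-Hochberg at 0.05), so groups of 2 took their spread from all mice. The common biological coefficient of variation was 0.225. Differences between mutants were contrasts in this fit. CPM are counts scaled to library size with TMM factors. Lengths and coordinates came from GENCODE M21 (GRCm38). Fold limits against 0 counts used 3 counts over the group and cover only counting error. The script was checked on simulated data.

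The genes and lists were chosen with earlier results of these data known. The rule for named genes took those called, their ligand or receptor partners, the 4 ligands and 3 receptors with the highest mean CPM, and up to 4 called genes per list. Ccl7, Ccl22, Cxcl9 and Cxcl10 were described by mouse beyond this rule, after their values were seen, and Cxcl12, Ackr4 and Ccr10 are given by range. Replicates are separate mice, so p-values reflect the variation among them. The most similar pair of libraries in a group differed by a chi-square per degree of freedom of 5.98, so none was counted as a repeat. Alternatives were DESeq2 1.42.0, scaling by RLE, filters of 0 counts or 1 CPM on average, single-cohort fits, pooled controls, a replicate block in LR, and omitting mice. Omitting mice outside a comparison, a sex covariate and omitting the 6 mice with the most hair matrix RNA were added after seeing the data. Results of 1 gene are not reported here.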

Additional observations from a re-analysis of the deposited data

Results flagged for a closer look

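Ccl27a in KR 1 stood apart from the other KR mice, at 416 CPM where the others were at 299 to 311 CPM. The gap to the next mouse was 0.903 of the range of the 4 mice, above the limit of 0.829 for 4 values. The check was run on 34 groups of 4 mice over 17 genes, and chance alone gives about 1 such value in 20 groups. Without KR 1 the log2 fold change of Ccl27a in KR was 0.79 (adjusted p = 0.0798, edgeR).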

How the results depend on the processing

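No called result changed sign under any alternative run. Of the log2 fold changes recomputed for the 16 tested genes that the naming rule selected, 2323 kept their direction and side of the threshold, 32 lost the threshold, 12 gained it, and 111, all uncalled, changed sign. Ccl1 and Ccl2 in LR were called in 28 of 28 alternatives and Cxcl16 in 26 of 28, missing with the cohort alone (adjusted p = 0.0712) and without the 6 mice with the most hair matrix RNA. In KR Ackr3 was called in 23 of 27, Cxcl1 in 19 of 26 and Ccl27a in 15 of 27, and in KN1 Cxcr5 in 20 of 27.

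Called chemokine and receptor genes numbered 5 in KR and 6 in LR with DESeq2, and 5 in KR, 6 in LR and 4 in KN1 with all 7 controls pooled. They numbered 0 in KR and KN1 without the 3 controls with a second name and 0 in both without the 6 mice with the most hair matrix RNA. With each cohort fitted alone there were 4 in KR, 2 in LR and 0 in KN1. Leaving out 1 mouse gave 0 to 5 in KR, 3 to 4 in LR, 0 to 1 in KN1 and 0 in each difference. The count in KR was 0 without KR control 4 or 6, 1 without KR 3 or KR 5, and 5 without LR control 5. In KN1 it was 0 without KN1 control 7, KN1 2, KN1 3 or KN1 4. DESeq2 called 2 genes for LR minus KN1 and 1 for KR minus KN1. Over all genes, calls numbered 264 in KR, 185 in LR and 325 in KN1, against 1076, 536 and 797 with DESeq2, 809, 1052 and 1867 with pooled controls, and 672, 66 and 98 with each cohort alone. Higher counts of chemokine and receptor genes with DESeq2 or pooled controls are thus not particular to these genes. For fits without some mice, calls over all genes are not given, so those counts stand without that share. Genes gained in at least 1 alternative, over all 32 tested, were Ccl2, Ccl22, Ccr7, Cxcl14 and Cxcr5 in KR, Ccl7, Ccl22, Ccr4 and Cxcl10 in LR, and Ccl27a, Ccr4 and Cxcl14 in KN1. The cause of these changes was not tested, beyond the smaller number of mice where some were left out.

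Numbers 2 and 3 occur in both LR and its controls, and same-numbered mice did not deviate together (correlations 0.07 and -0.08), so the numbers are only shared. A replicate block in LR gave 3 called genes, as without it. KR and KN1 share 1 number each with their controls, so no block could be fitted there. Genes below about 1 CPM rest on few reads, which limits what could be detected in them at this depth.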
